A study of Mus musculus with 3 samples.

Results

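The let-7 family of microRNAs, with its member miR-98, was followed on 3 single-colour arrays of mouse intestinal organoids. Its probes were chosen by name, as those carrying let-7a to let-7g, let-7i or miR-98 in either arm, which gave 20 of the 1265 microRNA probes. Of these, 9 read the 5p arm, which carries the let-7 seed, and 11 read the 3p arm, the other strand of the hairpin. A single spot for let-7a-1-3p and let-7c-2-3p, whose sequences are identical, counts once.

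The arrays held RNA of tumour organoids of ApcMin mice exposed to 1 uM 5-Aza-CdR, of untreated tumour organoids of ApcMin mice, and of organoids grown from the normal gut epithelium of wild-type mice. The Min allele truncates Apc, a tumour suppressor that restrains Wnt signalling, and 5-Aza-CdR (decitabine) blocks DNA methyltransferases. All cultures grew in Matrigel without serum, with R-spondin 1, EGF and Noggin. The sources used here do not state the number of mice behind a culture, the length of the exposure or a vehicle. With 1 array per group there is no p-value, and array, culture and group cannot be told apart.

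let-7 microRNAs are made from hairpin transcripts that Drosha and Dicer cut. The RNA-binding proteins LIN28A and LIN28B block this maturation of let-7. Mature let-7 binds messenger RNAs through its seed and represses growth genes, among them Ras genes, Myc and Hmga2. In the mouse intestine, let-7 is known as a brake on epithelial growth that LIN28B counteracts. Messenger RNAs and LIN28 were not measured on these arrays.

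All 9 members of the 5p arm have the same seed (bases 2 to 8, in capitals), so they can bind the same target sites, and they differ in the bases after it. The mature sequences, from RefSeq on GRCm38.p6, are shown because the similarity of the members decides how far their probes can be read apart.
let-7a-5p: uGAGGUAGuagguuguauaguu
let-7b-5p: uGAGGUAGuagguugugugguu
let-7c-5p: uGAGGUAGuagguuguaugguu
let-7d-5p: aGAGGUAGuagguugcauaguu
let-7e-5p: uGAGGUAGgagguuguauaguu
let-7f-5p: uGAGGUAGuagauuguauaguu
let-7g-5p: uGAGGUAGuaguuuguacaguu
let-7i-5p: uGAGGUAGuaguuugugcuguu
miR-98-5p: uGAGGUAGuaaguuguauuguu
Counted from 1 at the 5′ end, let-7c-5p differs from let-7a-5p by A19G alone, let-7e-5p by U9G alone and let-7f-5p by G12A alone. let-7b-5p differs from it by A17G and A19G, let-7d-5p by U1A and U16C, let-7g-5p by G12U and U18C, and miR-98-5p by G11A and A19U. let-7i-5p is the most distant from let-7a-5p, with G12U, A17G, U18C and A19U. Members that differ by 1 or 2 of 22 bases may share signal on a hybridisation array, so the 9 probes are not separate replicates. Sharing of signal was not tested, since the probes' own sequences were not used here.

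In GRCm38.p6 the members come from 12 hairpin genes on 7 chromosomes. The minus-strand group of Mirlet7a-1 (chr13:48538179-48538272), Mirlet7f-1 (chr13:48537829-48537917) and Mirlet7d (chr13:48536012-48536114) has gaps of 261 and 1714 bases. Mirlet7c-2 (chr15:85706603-85706697) and Mirlet7b (chr15:85707319-85707403) lie 621 bases apart inside the long non-coding gene Lncppara. Mirlet7f-2 (chrX:151912346-151912428) and Mir98 (chrX:151913214-151913321) lie 785 bases apart inside the span of the protein-coding gene Huwe1. Mirlet7g (chr9:106178840-106178927) lies inside the span of Wdr82, and Mirlet7i (chr10:122985640-122985724) lies in no other listed gene. The remaining loci, Mirlet7e on chr17, Mirlet7c-1 on chr16 and Mirlet7a-2 on chr9, stand beside genes of the miR-99/miR-100 and miR-125 families and are taken up below. let-7a-5p, let-7c-5p and let-7f-5p are each encoded by 2 hairpins, so their probes sum 2 loci.

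Signals are given as spot brightness above the mean of the array's blank spots, in scanner units. A probe was called detected above the blank mean plus 2 SD, and a stricter mark was the brightest negative control spot, at 15.7, 23.6 and 15.5 above blank on the treated tumour, tumour and wild-type arrays. All 9 probes of the 5p arm were brighter than that mark on all 3 arrays. Of all 1263 probes, 408, 410 and 413 were brighter than it, in the same order. The number of detected probes was 912 for treated tumour, 957 for untreated tumour and 954 for wild-type organoids, out of 1263. Of the 19 epithelial microRNA probes listed as markers, 14, 13 and 16 were brighter than the negative controls, in the same order. In tumour minus wild type the 18 detected had a median normalized log2 difference of -0.27. Of these 18, 4 were at least 2-fold lower (1.35% of all detected probes were), and 3 were higher at all (51%). The 4 were miR-215-5p at -4.22, miR-194-5p at -2.60, miR-192-5p at -2.44 and miR-215-3p at -1.04. The miR-200, miR-141 and miR-429 probes lay between -0.36 and 0.14. The neuronal list had 2 of 9 probes above the mark of the negative controls on each array. In the same order, these were miR-128-2-5p (1649, 1916 and 1666) and miR-128-1-5p (83.2, 153 and 76.1). The miR-9, miR-124, miR-137 and miR-128-3p probes were below that mark on every array. The endothelial probes were below that mark on every array, with sums of 5.44, 11.7 and 7.18 in the same order. Of the 13 blood-cell probes 4, 3 and 3 were above it, with sums of 326, 630 and 375. miR-486-3p was the brightest of these, at 214 in treated tumour, 410 in untreated tumour and 265 in wild-type organoids, and miR-451a, of red cells, was 2.90 or less on each array. The part of other cell types in any result was not tested.

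The tumour organoids were set first against wild-type organoids, the pair named in the study's design. The family did not move as a block: let-7e-5p, let-7c-5p and let-7b-5p were brighter by the largest factors on the tumour array, and let-7g-5p and let-7f-5p were not brighter at all. let-7e-5p had a signal of 101 above blank in tumour organoids, against 56.4 in wild-type organoids. let-7c-5p had 837 in tumour organoids, against 508 in wild-type organoids, and let-7b-5p had 660 against 427. These 3 spots were 1.79, 1.65 and 1.55 times as bright on the tumour array.

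let-7a-5p, the member with the reference sequence of the family, had a signal of 794 in tumour organoids and 595 in wild-type organoids. let-7i-5p had 238 in tumour organoids and 182 in wild-type organoids. let-7d-5p, which starts with A instead of U, had 659 and 560 in the same order, and miR-98-5p, the dimmest of the 9, had 26.8 and 21.1. The ratio of tumour to wild-type signal for these 4 lay between 1.18 and 1.335. let-7f-5p had 429 in tumour organoids and 429 in wild-type organoids, and let-7g-5p had 216 in tumour organoids and 236 in wild-type organoids.

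**Figure D1:**
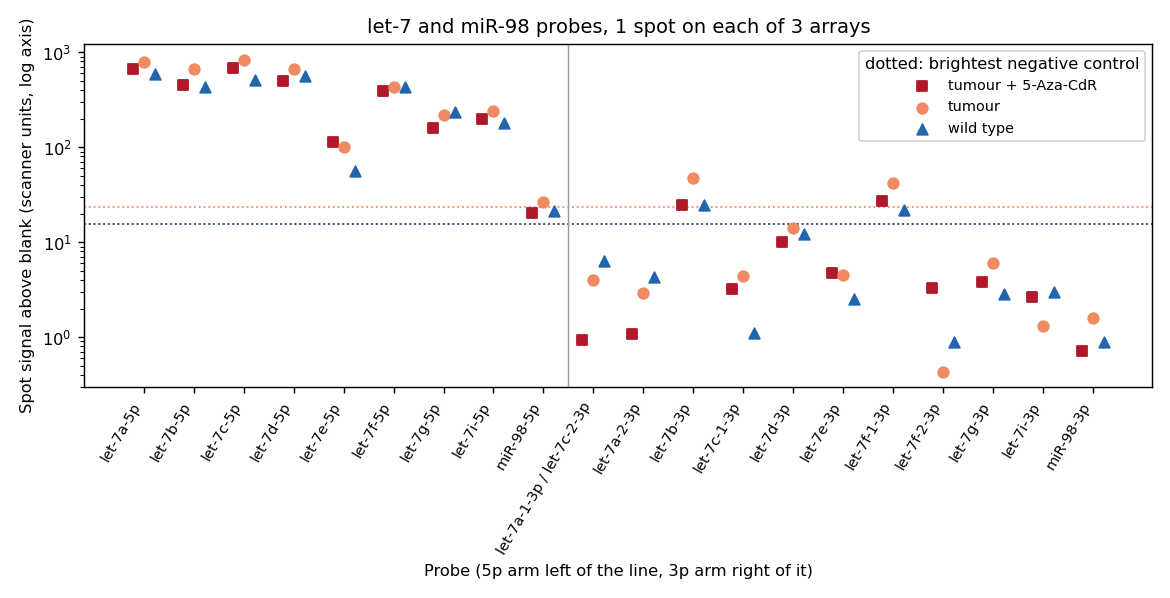
Spot signal above blank (log axis, scanner units) of the 20 let-7 and miR-98 probes on the treated tumour (squares), tumour (circles) and wild-type (triangles) arrays, 1 spot each. All 9 probes of the 5p arm lie above the brightest negative control of their array (dotted lines), from 20.2 to 837, while 2 of the 11 probes of the 3p arm do so.

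The tumour array was brighter as a whole, and these ratios have to be read against it. Over the 375 probes brighter than the negative controls on all 3 arrays, the median ratio of tumour to wild-type signal was 1.56, with quartiles of 1.18 and 1.99. let-7e-5p and let-7c-5p lay above that median and the other 7 below it, with a median of 1.31 for the 9. The 2 kinds of spike control, in contrast, were about equally bright, the first kind at 7951 ± 801 in tumour and 8030 ± 464 in wild-type organoids (mean ± SD of 8 spots each).

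After quantile normalization, which removes such overall brightness, the log2 difference of tumour minus wild type was 0.30 for let-7c-5p, 0.15 for let-7b-5p and 0.11 for let-7e-5p. It was -0.01 for let-7a-5p, -0.09 for miR-98-5p, -0.13 for let-7i-5p and -0.23 for let-7d-5p. The lowest were let-7f-5p at -0.46 and let-7g-5p at -0.56. The median of the 9 was -0.09, against 0.03 over the 437 probes brighter than the negative controls on at least 1 of these arrays.

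None of the 18 members detected on at least 1 of these arrays was 2-fold higher or lower in tumour organoids, where 1.25% of 1040 detected probes were 2-fold higher and 1.35% 2-fold lower. None passed 1.5-fold either, against 3.17% higher and 3.65% lower. On the normalized scale 3 of the 9 probes of the 5p arm were higher at all, against 52.4% of the 437. The spread between spots of 1 array gives a scale for smaller differences. From the spike controls, the SD of a difference between single spots was 0.14 on the log2 scale for this pair of arrays. It covers spot noise only, not the difference between cultures or hybridisations, and it comes from bright spots. The offset in the normalization shrinks the differences of dimmer probes, among them let-7e-5p and miR-98-5p. With an offset of 16 these 2 had differences of 0.15 and -0.16, beyond that spread, which they did not pass in the values used here. let-7i-5p then passed it narrowly too, at -0.148 against 0.145. By more than that spread, let-7c-5p and let-7b-5p were higher (2 of 9, against 34.3% of the 437 probes) and let-7d-5p, let-7f-5p and let-7g-5p were lower (3 of 9, against 29.1%). Those shares are near the background. let-7g-5p's difference, the largest in the family, was equalled or exceeded in size by 75 of the 437 probes (17.2%).

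The sign of the difference depended on the scaling for most members. Under 8 settings of background and scaling, let-7g-5p was lower in tumour organoids in all 8 (-0.69 to -0.01), and let-7f-5p in 6 (-0.52 to 0.05). let-7b-5p, let-7c-5p and let-7e-5p were higher in 7 of the 8, and lower when the scanner's local background of each spot was used. let-7a-5p, let-7d-5p and let-7i-5p were lower in 5 and turned higher under both median scalings and spike scaling. miR-98-5p was lower in 6 of the 8.

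What a factor per array cannot change is the spread within the family. In tumour against wild-type organoids the highest ratio, that of let-7e-5p, was 1.95 times the lowest, that of let-7g-5p. Over the 375 probes the quartiles of that ratio were 1.18 and 1.99. The choice of background, however, can change the order within the family. With the scanner's local background the log2 differences of let-7f-5p (0.05) and let-7g-5p (-0.01) lay above those of let-7e-5p (-0.17), let-7b-5p (-0.55) and let-7c-5p (-2.55). Above the blank mean, and relative to the family's own median on the log2 scale, let-7e-5p stood at 0.45, let-7c-5p at 0.33 and let-7b-5p at 0.24. let-7f-5p stood at -0.39 and let-7g-5p at -0.51. let-7a-5p, let-7f-5p and let-7d-5p share the chr13 group and stood at 0.03, -0.39 and -0.15. let-7c-5p and let-7b-5p, whose genes Mirlet7c-2 and Mirlet7b are neighbours on chr15, stood at 0.33 and 0.24. A gap between 2 members joins 2 differences between arrays, so the spot spread given above is too small a scale for it. The probes of let-7a-5p, let-7f-5p and let-7c-5p also sum 2 loci each, so the gene groups cannot be compared through them. let-7g-5p and let-7i-5p, which share G12U and U18C against let-7a-5p, stood at -0.51 and 0.00.

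**Figure D2:**
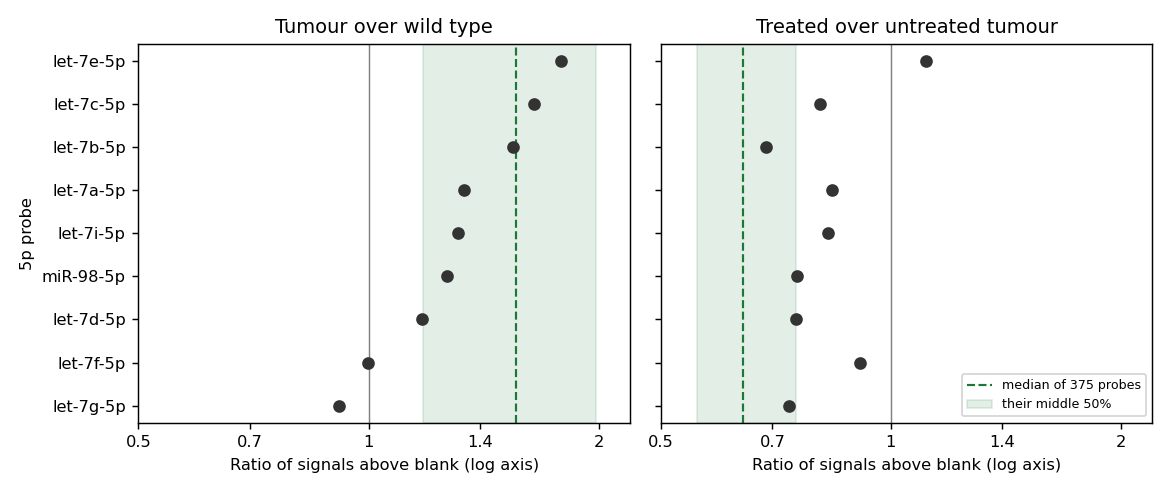
Ratio of signals above blank (log axis) for the 9 probes of the 5p arm, tumour over wild type on the left and treated over untreated tumour on the right, with the median (dashed) and middle 50% (shaded) of 375 probes brighter than the negative controls on all 3 arrays. In tumour over wild type, 7 of the 9 lie below the median of 1.56, and in treated over untreated tumour all 9 lie above the median of 0.641.

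The order of the members was also set beside base composition. The 5p sequences hold from 7 (let-7f-5p and miR-98-5p) to 10 (let-7b-5p) G or C bases. Across the 9 members, which share most of their sequence, the G and C content and the normalized difference of tumour minus wild type correlated at r = 0.57 (Spearman's rho 0.55). Across 362 probes of the whole array that are brighter than the negative controls on at least 1 of these arrays and matched a RefSeq sequence, r was 0.17 (rho 0.24). In treated minus untreated tumour, r was -0.18 (rho -0.12) across the 9 members and -0.22 (rho -0.29) across 353 probes. In treated tumour minus wild type, r was 0.43 (rho 0.51) across the members and 0.076 (rho 0.083) across 365 probes. Probes of an array share a hybridisation and are not independent, and the part of base composition in the differences was not tested.

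Treated tumour organoids were then set against untreated ones. Every 5p member was less dimmed on the treated array than the median probe was, and let-7e-5p, alone in the family, was brighter there. let-7e-5p had a signal of 112 in treated tumour organoids, against 101 in untreated ones. let-7f-5p had 391 in treated and 429 in untreated tumour organoids. let-7a-5p had 666 against 794, let-7i-5p 197 against 238 and let-7c-5p 676 against 837, treated before untreated. The ratios of treated to untreated signal for these 5 ran from 0.808 for let-7c-5p to 1.11 for let-7e-5p.

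The remaining 4 were dimmer by more. let-7b-5p had a signal of 453 in treated and 660 in untreated tumour organoids, and let-7g-5p had 159 and 216. let-7d-5p had 496 in treated and 659 in untreated tumour organoids, and miR-98-5p had 20.2 and 26.8. Their ratios lay between 0.686 and 0.753. Over the 375 probes brighter than the negative controls on all arrays the median ratio was 0.641, with quartiles of 0.557 and 0.753, and 15 of the 375 (4%), let-7e-5p among them, had a ratio above 1. The spike controls too were dimmer on the treated array, at 5007 ± 339 in treated and 7951 ± 801 in untreated tumour organoids for the first kind (mean ± SD of 8 spots each).

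On the normalized scale all 9 were higher in treated than in untreated tumour organoids, where 42.9% of 427 probes brighter than the negative controls on at least 1 of the arrays were. let-7e-5p had a log2 difference of 0.50 and let-7f-5p one of 0.49, followed by let-7i-5p at 0.24, let-7a-5p at 0.20 and let-7d-5p at 0.20. These 5 exceeded the spread of 0.16 between single spots of this pair (5 of 9, against 19.9% of the 427 probes), and none was lower by more than it (17.8% of the 427). let-7c-5p at 0.16, let-7g-5p at 0.09, miR-98-5p at 0.06 and let-7b-5p at 0.06 did not. The median of the 9 was 0.20, against -0.02 over the 427 probes. let-7f-5p's difference was equalled or exceeded in size by 26 of them (6.09%). No member of the 19 detected on at least 1 array was 2-fold different, where 0.0987% of detected probes were 2-fold higher and 0% 2-fold lower. At 1.5-fold there was also none, against 0.592% in each direction.

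let-7e-5p was higher in treated organoids under all 8 settings (0.18 to 0.77) and let-7f-5p under 7 (-0.04 to 0.55). let-7a-5p, let-7b-5p, let-7c-5p, let-7d-5p, let-7g-5p and let-7i-5p were lower under both median scalings, and miR-98-5p under 1 of them and with the scanner's local background. In the authors' values let-7b-5p (-0.14), let-7g-5p (-0.041), let-7d-5p (-0.011) and miR-98-5p (-0.0099) were lower as well, so 5 of the 9 were higher there. The median of the 9 was -0.064 when each array was divided by the median of the probes detected on all arrays and -0.16 when divided by that of all probes. Whether the 9 probes share signal was not tested, so 9 of 9 is not 9 separate observations. The array pair shares the untreated tumour array with the first comparison, with opposite sign.

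**Figure D3:**
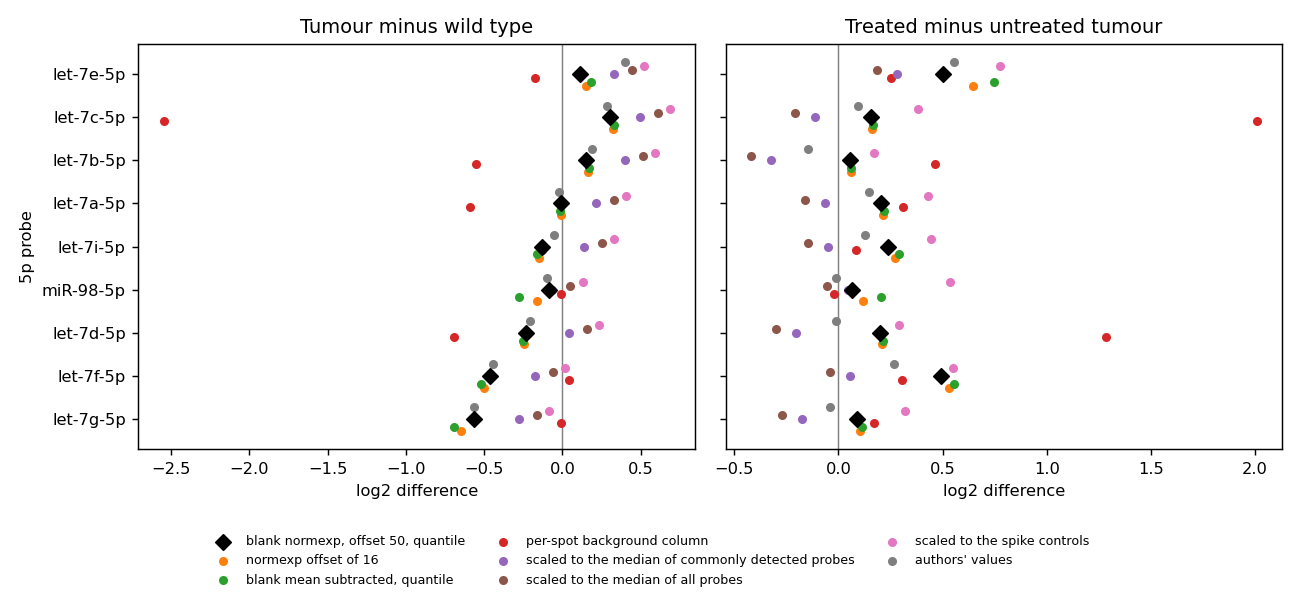
Log2 differences of the 9 probes of the 5p arm under 8 settings of background and scaling, tumour minus wild type on the left and treated minus untreated tumour on the right. Diamonds are the values used in the text, and the points farthest from the rest, let-7c-5p at -2.55 (left) and 2.01 (right), come from the per-spot background column.

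The third pair set treated tumour organoids against wild-type organoids. let-7e-5p differed most: its signal of 112 in treated tumour organoids was 1.99 times the 56.4 of wild-type organoids, where the median ratio over the 375 probes was 0.990. let-7c-5p followed at 676 in treated tumour organoids against 508 in wild-type organoids, a ratio of 1.33. At the other end let-7g-5p had 159 in treated tumour organoids against 236 in wild-type organoids, a ratio of 0.675. The ratio of let-7e-5p was 2.95 times that of let-7g-5p.

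The normalized log2 differences of treated tumour minus wild type were 0.61 for let-7e-5p, 0.46 for let-7c-5p, 0.21 for let-7b-5p and 0.19 for let-7a-5p, all beyond the spot spread of 0.12 (4 of 9, against 30.9% of 440 probes). let-7g-5p at -0.48 was lower by more than it (1 of 9, against 28%). let-7i-5p at 0.11, let-7f-5p at 0.03, miR-98-5p at -0.02 and let-7d-5p at -0.03 lay within it. None of 19 detected members was 2-fold different, against 1.27% of detected probes higher and 1.36% lower. let-7e-5p passed 1.5-fold, where 3.31% of detected probes were higher by that much and 3.89% lower. Of the 9, 6 were higher at all, against 50% of the 440. let-7e-5p was higher in all 8 settings (0.08 to 1.30), and let-7g-5p was lower in 6 of 8 (-0.61 to 0.24).

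Set in order of the normalized level over the 3 arrays, the members fell into patterns. let-7e-5p, let-7c-5p and let-7b-5p were highest in treated tumour, intermediate in untreated tumour and lowest in wild-type organoids. Of the neighbouring steps, that of let-7e-5p between tumour and wild type and those of let-7b-5p and let-7c-5p between treated and untreated tumour lay within the spot spread. let-7g-5p, let-7d-5p and miR-98-5p were highest in wild-type and lowest in untreated tumour organoids, and for let-7d-5p and miR-98-5p the top places (treated tumour and wild type) lay within the spread. let-7f-5p, at levels of 9.06, 8.57 and 9.03 on the log2 scale in treated tumour, untreated tumour and wild-type organoids, was lowest in untreated tumour organoids. let-7g-5p in treated and untreated tumour organoids, and miR-98-5p on all 3 arrays, differed by less than the spread. With an offset of 16 in the normalization, let-7e-5p (0.15) and miR-98-5p (-0.16) passed the spread in tumour minus wild type. Other steps then passed it narrowly. let-7i-5p was at -0.148 in tumour minus wild type (spread 0.145) and 0.1242 in treated tumour minus wild type (spread 0.1238). let-7c-5p was at 0.162 in treated minus untreated tumour (spread 0.156). let-7a-5p and let-7i-5p were highest in treated tumour organoids, with untreated tumour and wild type within the spread of each other, as were treated tumour and wild type for let-7i-5p.

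The genes beside let-7 were read next, since one transcript can carry several microRNAs. Mir99b (chr17:17830188-17830257), Mirlet7e (chr17:17830352-17830444) and Mir125a (chr17:17830812-17830879) lie on the plus strand inside the span of Spaca6, 94 and 367 bases apart. On chr16, Mir99a (chr16:77598936-77599000) lies 656 bases from Mirlet7c-1 (chr16:77599657-77599750), and Mir125b-2 lies 46522 bases further. On chr9, Mir100 (chr9:41531425-41531504) lies 5211 bases from Mirlet7a-2 (chr9:41536716-41536811) and Mir125b-1 45114 bases beyond it, all in the long non-coding gene Mir100hg. miR-125 is the vertebrate relative of the worm lin-4, and miR-99 and miR-100 are known to repress genes of the mTOR pathway. The mature 5p sequences of these neighbours are shown because members of a family differ from one another by few bases, here also with the seed in capitals.
miR-99b-5p: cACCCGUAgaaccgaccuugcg
miR-99a-5p: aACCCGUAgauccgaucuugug
miR-100-5p: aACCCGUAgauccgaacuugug
miR-125a-5p: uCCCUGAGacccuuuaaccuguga
miR-125b-5p: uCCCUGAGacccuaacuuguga

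The 5p arms of the neighbours of let-7e were brighter in both tumour cultures than in wild-type organoids, and their 3p arms differed by less than the spot spread between tumour and wild type. The normalized difference of let-7e-5p itself, 0.11, lay within that spread. miR-125a-5p had a signal of 80.4 in treated tumour, 80.6 in untreated tumour and 11.2 in wild-type organoids. miR-99b-5p had 53.8, 48.1 and 4.97 in the same order. Both tumour arrays stood apart from the wild-type array, where these 2 probes were detected but dimmer than the brightest negative control. The normalized log2 difference of tumour minus wild type was 0.85 for miR-125a-5p and 0.66 for miR-99b-5p. Both kept that sign in all 8 settings, from 0.096 to 2.41 for miR-125a-5p and from 0.039 to 2.84 for miR-99b-5p. The 3p arms of the same hairpins had differences of 0.056 (miR-125a-3p) and 0.0072 (miR-99b-3p). miR-125a-3p was bright, at 193 in treated tumour, 359 in untreated tumour and 221 in wild-type organoids, and had a difference of -0.23 in treated minus untreated tumour and -0.17 in treated tumour minus wild type. For the 5p arms in treated against untreated tumour organoids the differences were 0.36 for each, and were below 0 with the scanner's local background (-0.27 for miR-125a-5p and -0.063 for miR-99b-5p). In treated tumour minus wild type they were positive in 7 of the 8 settings, and below 0 with that background (-0.18 and -0.024).

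The neighbours on chr16 and chr9 were dimmer, with both tumour arrays again above the wild-type array. miR-125b-5p, which both loci encode, had a signal of 45.8 in treated tumour, 31.7 in untreated tumour and 9.73 in wild-type organoids. miR-99a-5p had 19.5, 21.5 and 2.14 in that order, and miR-100-5p had 19.7, 17.1 and 2.90. On the wild-type array all 3, and on the untreated tumour array miR-99a-5p and miR-100-5p, were dimmer than the brightest negative control. Their normalized differences of tumour minus wild type were 0.29, 0.35 and 0.26, positive in all 8 settings. Over the 11 probes of these neighbours, 9 were detected in tumour or wild-type organoids, with a median difference of 0.26. Of these 9, 8 were higher in tumour organoids, against 51% of all detected probes, and none by 2-fold at the offset of 50. With the blank mean subtracted instead, the 5p arms passed 2-fold, where 65 of 1040 detected probes were 2-fold higher. Their differences were then 2.33 for miR-125a-5p, 2.80 for miR-99b-5p, 2.91 for miR-99a-5p, 2.10 for miR-100-5p and 1.17 for miR-125b-5p. In treated minus untreated tumour 7 of 9 were higher (44.6% of detected probes), and in treated tumour minus wild type also 7 of 9 (47.4%). In that last pair 2 of the 9, miR-125a-5p and miR-99b-5p, were at least 2-fold higher, against 1.27% of detected probes. The offset of 50 in the normalization draws the differences of such dim probes towards 0. The wild-type spots of these 5p arms were not above the negative controls. No ratio of signals is given for them, and the size of their differences is uncertain.

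miR-125b, miR-99a and miR-100 are also abundant in stromal cells, so the smooth muscle and fibroblast list was read beside them. Its 17 probes, which include 3 of miR-125b, had a summed signal of 190 in treated tumour, 249 in untreated tumour and 173 in wild-type organoids. In the same order, 5, 6 and 4 of them were brighter than the negative controls, against 408, 410 and 413 of all 1263 probes. Of the 14 detected in tumour or wild-type organoids, 8 were higher in tumour organoids, with a median log2 difference of 0.0080. Its members went both ways. The defining markers miR-143-3p (2.30, 2.40 and 9.75 in the same order) and miR-145a-5p (2.43, 4.01 and 4.77) were below the negative controls on all arrays and dimmer on both tumour arrays than on the wild-type array. The brighter miR-143-5p had 33.0, 46.6 and 32.5, and miR-199b-5p had 18.6, 31.7 and 14.5, both brightest in untreated tumour organoids. miR-214-3p had 26.6, 35.5 and 42.6. Their part in the values of the neighbours was not tested. Fewer cells of a type and less RNA per cell cannot be told apart in such bulk samples.

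**Figure D4:**
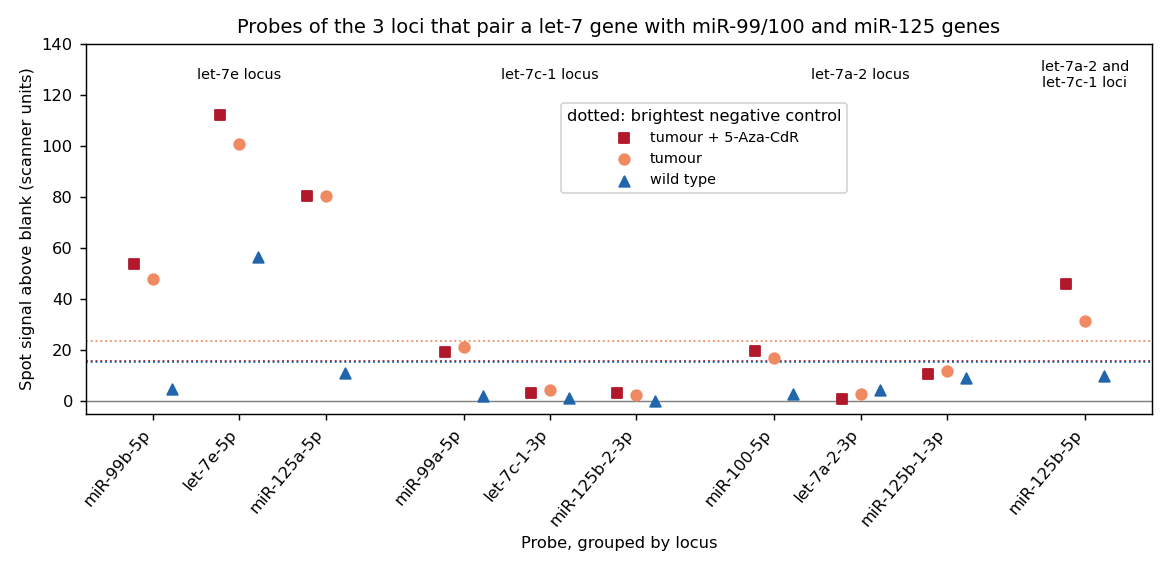
Spot signal above blank (scanner units) of probes from the 3 loci that hold a let-7 gene beside genes of the miR-99/miR-100 and miR-125 families, on the treated tumour (squares), tumour (circles) and wild-type (triangles) arrays. For miR-99b-5p, let-7e-5p and miR-125a-5p both tumour arrays lie above the wild-type array, at 48.1 to 112 against 4.97 to 56.4.

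The probes of the 3p arm say little about single loci. Of all 1263 probes, 912 to 957 were detected on an array and 408 to 413 were brighter than its brightest negative control. Of the 11 probes of the 3p arm, 8 were detected on each array and 2 were brighter than the brightest negative control. Those were let-7b-3p, with a signal of 24.6 in treated tumour, 47.9 in untreated tumour and 24.9 in wild-type organoids, and let-7f-1-3p, with 27.0, 42.0 and 22.0. Their normalized differences of tumour minus wild type were 0.15 and 0.13. let-7d-3p was next, at 9.93, 14.2 and 12.2 in the same order.

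The other 8 lay within 6.29 scanner units of the blank mean on every array, and no fold is given for them. let-7c-1-3p and let-7a-2-3p would tell the paired loci apart, since the 5p sequences cannot. let-7c-1-3p, beside miR-99a, had 3.19 in treated tumour, 4.39 in untreated tumour and 1.12 in wild-type organoids, the last under the detection limit. let-7a-2-3p, beside miR-100, had 1.08, 2.90 and 4.33, the first under the detection limit. let-7e-3p had 4.79, 4.52 and 2.54 and let-7g-3p had 3.79, 6.10 and 2.84, both detected on each array. The shared spot of let-7a-1-3p and let-7c-2-3p had 0.929, 4.04 and 6.29, the first under the limit. let-7i-3p had 2.63, 1.30 and 2.95, the second under it, and let-7f-2-3p was over it at 3.30 in treated tumour organoids alone. miR-98-3p was under it on all 3 arrays.

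The arrays also carried let-7j and let-7k, which the rule for members leaves out. let-7k has the let-7 seed.
let-7k: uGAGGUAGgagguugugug
Over its 19 bases it differs from let-7b-5p at 1 position and from let-7c-5p and let-7e-5p at 2. Its signal was 69.5 in treated tumour, 77.6 in untreated tumour and 35.5 in wild-type organoids. Like these 3 members it was brighter in tumour than in wild-type organoids, but so were 319 of the 375 probes (85.1%). Its normalized log2 difference of tumour minus wild type was 0.27, and -0.04 with the scanner's local background. let-7j was dimmer than the negative controls on every array, with 13.5, 18.0 and 12.4. Both were singled out after their values were seen. They belong to a list of 24 probes of microRNAs tied to let-7 or LIN28, or with a similar seed, such as miR-30, miR-9 and miR-107. Of the 22 detected in tumour or wild-type organoids, 15 were higher in tumour organoids (51% of all detected probes were), with a median log2 difference of 0.04 and none past 2-fold. Of the 23 detected in treated or untreated tumour organoids, 16 were higher in treated ones (44.6% of all detected probes were), with a median of 0.05.

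The 5 probes outside the family whose pair of normalized differences lay nearest to the 5p median (-0.09 in tumour minus wild type and 0.20 in treated minus untreated tumour) were miR-1195, miR-6385, miR-291a-5p, miR-6418-5p and miR-106b-5p. Their distances, over 3 arrays, ran from 0.063 to 0.075, out of 364 probes brighter than the negative controls on all arrays. Of these 364, 7 lay closer than 0.1. miR-106b-5p had a signal of 326 in treated tumour, 391 in untreated tumour and 268 in wild-type organoids.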

How the data were processed

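MicroRNAs were measured on 3 arrays, 1 per group, with groups taken from the sample titles. Per the labels' protocols, RNA came from a mirVana kit and carried the dye Hy5 from a miRCURY LNA Array labelling kit. Per the file headers, the deposited intensity of a spot is its median at 635 nm, from scans at 3 gains. The authors' value table, also an intensity, equals the signal above the blank mean times 1 factor per array (largest residual 1.32e-05) with column medians of 25. The sources used here name neither the platform nor the scanner software.

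Of 1265 probes, 2 with a bad-spot mark on the wild-type array were left out. Background was corrected with limma 3.58.1 (R 4.3.3), by normexp on the mean and SD of 1664 blank spots (5% trimmed at each end) with an offset of 50. Values were quantile normalized and put on the log2 scale. The scanner's local background was kept as an alternative, since it follows its spot (r = 0.98 to 0.99 on the log scale) and exceeded it for 4 of the 9 probes of the 5p arm on the tumour array. With 1 array per group no test was made, and the number of arrays limits the precision. The steps were tested on simulated arrays built from the wild-type array, with known changes. No difference in overall signal between arrays was put in, so the choice of scaling was not tested.

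Members and lists were chosen with earlier results of these data known. Named were all members, the 5p arms of neighbouring microRNAs, and the 5 probes nearest the 5p median. let-7j, let-7k, single cell-type markers and the 3p arms of neighbours were named after their values were seen. Sequences and loci are from RefSeq, GRCm38.p6. Other tools were matplotlib 3.10.9, scipy 1.17.1, numpy 2.4.6, pandas 2.3.3 and Python 3.11.15.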

Additional observations from a re-analysis of the deposited data

How the results depend on the processing

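With 1 array per group there is no replicate to leave out. No paired analysis was possible because each group holds a single array. In tumour minus wild type, the median log2 difference of the 9 probes of the 5p arm moved to 0.14 when arrays were divided by the median of the probes all of them detected, to 0.25 by the all-probe median and to 0.33 by the spikes. In treated minus untreated tumour it moved to -0.064, -0.16 and 0.43 under the same scalings. In treated tumour minus wild type it was -0.029 with the per-spot background column and 0.76 with the spike controls. Spike scaling moved the median of all detected probes to 0.56 and 0.67 in the comparisons with the treated array, and the authors' values moved it to -0.26 and -0.14 there and to 0.10 in tumour minus wild type. Set against that all-probe median, the 5p median stood at -0.09 in tumour minus wild type and 0.24 under both median scalings and spike scaling. In treated minus untreated tumour it stood at 0.20 and -0.13, so its place relative to all detected probes turned as well. Against the 375 probes brighter than the negative controls on all arrays, the ratios of signals above blank can be compared free of any factor per array. The median ratio of the 9 was 1.31 against 1.56 in tumour over wild type, and 0.808 against 0.641 in treated over untreated tumour.

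The count of members at least 2-fold different was 0 in each pair. In tumour minus wild type it was 2 after subtraction of the blank mean and also 2 in the authors' table (let-7a-1-3p with let-7c-2-3p, and let-7a-2-3p, both lower and near blank), and 1 with the per-spot background column (let-7c-5p). In treated minus untreated tumour it was 1 with the blank mean subtracted (let-7f-2-3p) and 2 with the per-spot background column (let-7c-5p and let-7d-5p). In treated tumour minus wild type it was 5 with the blank mean subtracted (all in the 3p arm), 2 with spike scaling (let-7e-5p and let-7c-5p) and 1 at a threshold of 1.5-fold (let-7e-5p). The other alternatives moved the medians by less than the spot spread. The cause of these moves was not tested. Depth here is signal over background, and 9 of the 11 probes of the 3p arm were not above the brightest negative control on any array.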
